A study of Mus musculus with 13 samples.

Results

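The TNF ligand and receptor superfamily was followed across 4 groups of mouse midbrain. Members were the protein-coding genes whose symbol begins with Tnfsf or Tnfrsf and a digit, together with Tnf, Lta, Ltb, Ltbr, Cd40, Cd40lg, Fas, Fasl, Cd27, Cd70, Ngfr, Eda2r and Relt, with 1 receptor symbol left out by the rule. This gave 43 members, 17 ligands and 26 receptors, among the 49315 genes counted. RNA-Seq had been performed on midbrain from 13 male mice, each library from a different animal, at an age of 8 to 12 weeks. All animals carried floxed Ripk3 (Ripk3fl/fl) and had received tamoxifen at 60 mg/kg on 5 days. The 4 groups were Ripk3fl/fl Aldh1l1Cre- littermates given Saline (Cre- Saline, n = 3) or MPTP (Cre- MPTP, n = 3) and Ripk3fl/fl Aldh1l1Cre+ mice given Saline (Cre+ Saline, n = 3) or MPTP (Cre+ MPTP, n = 4). MPTP, a toxin of dopaminergic neurons, was given at 20 mg/kg on 5 days, and tissue was taken 3 days later. The Aldh1l1 promoter limits Cre to astrocytes, so in Cre+ mice the other cell types of the tissue still carry the floxed gene undeleted.

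TNF superfamily ligands are trimeric, mostly membrane-bound proteins that cluster their receptors on the next cell or, once shed, at a distance. Receptors with a death domain, such as Fas, can assemble caspase-8 and the RIP kinases, while receptors without one recruit TRAF adaptors and switch on NF-kappaB, whose targets include its own inhibitors. In brain the family is known for microglial and endothelial inflammatory signalling, for neurotrophin binding by Ngfr and for vascular roles of the orphan receptors Tnfrsf19 and Tnfrsf21.

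Between 11489150 and 29397278 reads per library were assigned to genes, with a median of 24907639. The lowest total was that of Cre- MPTP replicate 1. Cre+ MPTP replicate 4 carried muscle transcripts (summed level of 5 muscle markers up to 6312 CPM, counts scaled to library size with edgeR), so results are also given without these 2 libraries. Ripk3 itself had 4, 5 and 11 counts in Cre- Saline, 10, 7 and 6 in Cre+ Saline, 6, 18 and 40 in Cre- MPTP and 19, 4, 8 and 10 in Cre+ MPTP, too few to check the genotype in whole midbrain. Neuronal, astrocyte, microglial and oligodendrocyte markers were present in every library. The 7 T cell markers summed to between 1.19 and 6.63 CPM and the 4 B cell markers to between 0.396 and 1.13 CPM over all groups. In whole tissue, fewer cells of a type and less RNA per cell cannot be told apart.

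Promoter sequences of RefSeq (GRCm38.p6), covering 250 bases before and 50 from the start site on, were matched to 33 of the 43 members, in 37 windows. They are printed for the 3 ligands that rose after MPTP in Cre- mice, for Fas, the receptor with the largest rise, and for Tnfrsf19, the receptor whose fall had the smallest p. Capitals mark matches, on either strand, to a TATA box (TATAAA), an AP-1 motif (TGANTCA), a GAS motif for STAT proteins (TTCNNNGAA) or the NF-kappaB consensus. AP-1 and GAS matches read the same on both strands.
Tnf, chr17:35201958-35202257, minus strand: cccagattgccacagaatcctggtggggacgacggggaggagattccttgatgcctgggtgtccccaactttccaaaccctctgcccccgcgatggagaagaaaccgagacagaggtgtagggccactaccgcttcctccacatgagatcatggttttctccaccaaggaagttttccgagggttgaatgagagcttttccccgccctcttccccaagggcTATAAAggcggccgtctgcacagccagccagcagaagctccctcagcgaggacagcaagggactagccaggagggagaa
Tnfsf11, chr14:78307994-78308293, minus strand: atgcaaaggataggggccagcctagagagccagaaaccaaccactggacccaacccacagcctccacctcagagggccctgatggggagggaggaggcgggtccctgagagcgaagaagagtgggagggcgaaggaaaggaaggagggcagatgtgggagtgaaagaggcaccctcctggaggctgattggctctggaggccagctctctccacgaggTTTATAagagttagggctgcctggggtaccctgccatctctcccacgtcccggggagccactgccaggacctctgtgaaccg
Tnfsf8, chr4:63861235-63861534, minus strand: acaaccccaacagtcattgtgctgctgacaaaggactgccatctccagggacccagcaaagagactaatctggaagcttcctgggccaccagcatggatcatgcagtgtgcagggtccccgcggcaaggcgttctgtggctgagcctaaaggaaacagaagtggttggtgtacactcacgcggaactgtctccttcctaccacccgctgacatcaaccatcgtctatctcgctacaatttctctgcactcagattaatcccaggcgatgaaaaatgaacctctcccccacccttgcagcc
Fas, chr19:34290409-34290708, plus strand: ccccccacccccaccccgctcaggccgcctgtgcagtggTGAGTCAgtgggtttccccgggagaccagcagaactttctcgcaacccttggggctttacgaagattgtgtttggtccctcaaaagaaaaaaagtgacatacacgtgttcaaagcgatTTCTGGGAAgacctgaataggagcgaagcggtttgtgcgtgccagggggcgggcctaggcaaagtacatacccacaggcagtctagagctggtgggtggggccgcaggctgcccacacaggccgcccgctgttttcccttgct
Tnfrsf19, chr14:61046806-61047105, minus strand: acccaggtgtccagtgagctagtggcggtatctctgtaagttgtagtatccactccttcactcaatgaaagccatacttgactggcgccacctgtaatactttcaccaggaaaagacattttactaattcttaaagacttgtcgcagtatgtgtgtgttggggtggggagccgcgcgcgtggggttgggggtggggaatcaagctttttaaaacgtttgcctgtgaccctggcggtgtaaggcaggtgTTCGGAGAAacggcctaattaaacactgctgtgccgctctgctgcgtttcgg
The Tnf window held a TATA box 29 to 24 bases before the start and the Tnfsf11 window 1 on the other strand, 32 to 27 bases before it. In Fas an AP-1 match lay 211 to 205 bases and a GAS match 93 to 85 bases before the start. In Tnfrsf19 a GAS match began 2 bases before the start, and the Tnfsf8 window held none of the 4 motifs. Another Tnfrsf19 window, at a different start and not printed, also held none of them. The NF-kappaB consensus was absent from the 5 printed windows. It was found in 3 of the 37 member windows, those of Ltb, Tnfrsf8 and 1 of the starts of Tnfrsf9, and in 4.51% of all 32851 promoters. The TATA box was held by 13.6%, the AP-1 motif by 7.81% and the GAS motif by 8.30% of all promoters, so these matches are a description of the letters in each window.

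Levels were compared between members as TPM, in which counts are divided by the exon length of the gene and scaled to the library. Tnfrsf21 (death receptor 6) had the highest TPM in Cre- Saline, at 120 ± 14.4 (SD, n = 3), above Tnfrsf12a, the receptor of Tnfsf12, at 39.4 ± 5.08 and Relt at 38.3 ± 2.92. The SDs of Tnfrsf12a and Relt overlapped. Tnfrsf19 followed at 31.4 ± 2.20 TPM, then Tnfsf12, the only ligand among the first 8, at 17.6 ± 0.288 TPM, and Ltbr, the lymphotoxin beta receptor, at 15.0 ± 1.59 TPM. Over all 13 libraries the median TPM was above 1 in 26 members and above 5 in 8. Tnf, Tnfsf8 and Tnfsf11 were at the low end in Cre- Saline, at 0.0524, 0.0793 and 0.0382 TPM.

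**Figure D1:**
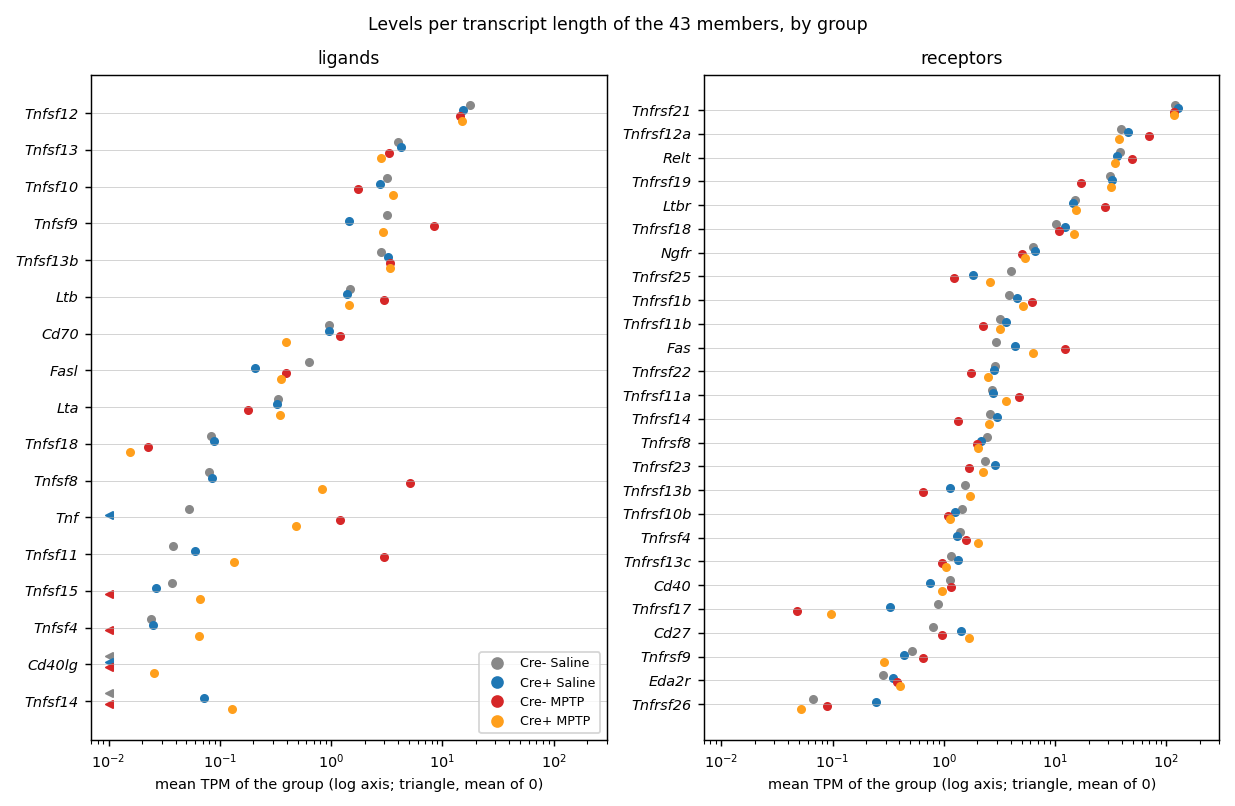
Mean TPM of each group (log axis) for the 17 ligands (left) and 26 receptors (right), ordered by the Cre- Saline mean, with triangles for a mean of 0. Tnfrsf21, near 120 TPM, is highest in each group, and Tnfsf8, Tnf and Tnfsf11 show the Cre- MPTP mean far to the right of both Saline means.

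Of the 43 members, 33 (9 ligands and 24 receptors) had at least 10 counts in at least 3 libraries and were tested. The other 10 were the ligands Cd40lg, Cd70, Fasl, Lta, Tnfsf4, Tnfsf14, Tnfsf15 and Tnfsf18 and the receptors Tnfrsf17 and Tnfrsf26, whose highest count in any library was 15 (Fasl). Tnf, Tnfsf11 and Tnfsf8 passed only through MPTP libraries, with no Saline library at 10 counts, so these 3 had to differ to be tested at all. For Tnfsf11 the only libraries with 10 counts were the 3 of Cre- MPTP, so it had to be higher there than in Cre+ MPTP as well.

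After MPTP in Cre- mice, 6 members rose (the ligands Tnf, Tnfsf11 and Tnfsf8 and the receptors Fas, Tnfrsf11a and Tnfrsf1b) and 2 receptors fell (Tnfrsf19 and Tnfrsf25), by edgeR's quasi-likelihood test at an adjusted p under 0.05. Over all 19360 genes tested, 2.23% were called higher and 0.956% lower. The direction of Tnf, Tnfsf11 and Tnfsf8 was fixed by the filter, so their calls and adjusted p are a description. Of the members called higher, only the receptors Fas, Tnfrsf11a and Tnfrsf1b were free of this limit. The counts at an unadjusted p and of CPM without overlap, given next, include these ligands too. At an unadjusted p under 0.05 there were 14 members, 9 higher and 5 lower, against 15.0% of all genes. The CPM of the Cre- MPTP libraries lay wholly above Cre- Saline in 9 members, against 7.11% of all genes, and wholly below in 6, against 8.02%. The median log2 fold change was 0.15 over the 33 members and 0.03 over all genes. Of the 8 called members, 7 overlapped no other counted gene, and Fas overlapped Gm27818 on its own strand. Without the 2 libraries named above 8 members were called, but not the same 8. Tnf and Tnfsf11 then fell below the count filter, and Ltbr was among those called. Fitted to the Cre- groups alone, edgeR called none of 32 members tested and 110 genes in all, while DESeq2 called 10 members and limma voom 12. The totals over all genes by DESeq2 and limma voom, also higher than in the main fit, are given at the end.

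Tnfsf11 encodes RANKL, the ligand that drives osteoclast formation and also acts on immune cells, and lies at chr14:78277445-78308043. It had 0, 0 and 2 counts in Cre- Saline and 48, 21 and 48 in Cre- MPTP, or 5.20, 0.832 and 1.58 CPM in the latter. Every Cre- MPTP library was above every other library of the study, and replicate 1 was the highest. Pooled over libraries, 117 counts against 2 gave a ratio of 70.6, with an exact 95% interval of 19.1 to 590 that covers counting error only. The fitted log2 fold change was 6.31 (SE 1.24, edgeR adjusted p = 0.0131), which depends on the prior count at such levels. The adjusted p was 0.0749 without Cre- Saline replicate 1 and 0.0806 without replicate 2, and without any 1 of the Cre- MPTP libraries the gene fell below the filter.

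Tnfsf8 (CD30 ligand, chr4:63831308-63861347), a costimulatory ligand of lymphocytes and myeloid cells, had 3, 4 and 0 counts in Cre- Saline and 15, 186 and 250 in Cre- MPTP. As CPM the latter were 1.63, 7.37 and 8.25, with replicate 1 well under the others but above every Saline library. The pooled counts of 451 against 7 gave a ratio of 77.8 (exact 95% interval 37.4 to 195, counting error only), and the fitted log2 fold change was 5.94 (SE 1.11, edgeR adjusted p = 0.00992). It was 0.0574 without Cre- Saline replicate 1 and 0.0552 without replicate 3.

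Tnf (chr17:35199381-35202007), the founding cytokine of the family, had 1, 1 and 0 counts in Cre- Saline and 1, 20 and 24 in Cre- MPTP. Replicate 1 of Cre- MPTP, at 0.108 CPM, was close to the Saline libraries (at most 0.0397 CPM) and replicates 2 and 3 both stood at 0.792 CPM. Pooled, 45 counts against 2 gave a ratio of 27.2 (exact 95% interval 7.10 to 231, counting error only), and the fitted log2 fold change was 4.33 (SE 0.951, edgeR adjusted p = 0.0351). Leaving out Cre- Saline replicate 1, 2 or 3 gave an adjusted p of 0.117, 0.133 or 0.14. Tnf sits between the lymphotoxin genes Ltb, 3060 bases away, and Lta, 1157 bases away. For Ltb the Cre- MPTP values were 4.44, 0.475 and 0.627 CPM against 0.195 to 1.35 CPM in Cre- Saline, and its log2 fold change of 1.30 did not pass the test (SE 0.818, edgeR adjusted p = 0.452). Lta had at most 7 counts.

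In Cre- mice, neutrophil markers also rose after MPTP. The 7 neutrophil markers summed to between 0.119 and 1.13 CPM in Cre- Saline, 0.325 and 3.24 in Cre+ Saline, 10.4 and 64.2 in Cre- MPTP and 0.572 and 3.92 in Cre+ MPTP. In Cre+ mice the marker sums thus overlapped between Saline and MPTP. Of the 5 neutrophil markers that could be tested, S100a8, S100a9, Retnlg and Mmp8 rose after MPTP in Cre- mice. Ly6g had at most 3 counts in any library. Their part in the result was not tested. None of the 4 testable T cell markers was called, and Cd3d, Cd3g and Cd8a had at most 4 counts.

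Fas (chr19:34290659-34327770), the death receptor of Fas ligand, stood at 1.43, 1.37 and 1.94 CPM in Cre- Saline and at 3.03, 8.08 and 8.81 CPM in Cre- MPTP. The groups did not overlap on this scale, with replicate 1 again the lowest of its group. As TPM that library (3.72) fell just under the highest Cre- Saline library (3.77), so the groups overlapped on the per-length scale. The log2 fold change was 2.09 (SE 0.440, edgeR adjusted p = 0.0205). It was lost without Cre- Saline replicate 1, 2 or 3 (adjusted p = 0.101, 0.118 and 0.0623) or without Cre- MPTP replicate 3 (0.0624). Its ligand Fasl had at most 15 counts.

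Tnfrsf11a (RANK, the receptor of Tnfsf11, chr1:105780718-105847981) was at 4.72, 5.0 and 4.71 CPM in Cre- Saline and 11.3, 8.20 and 9.01 CPM in Cre- MPTP, without overlap. Its log2 fold change was 0.97 (SE 0.201, edgeR adjusted p = 0.0179), and leaving out Cre- Saline replicate 1, 2 or 3 gave 0.0731, 0.0829 and 0.0813. The soluble decoy of the same ligand, Tnfrsf11b (osteoprotegerin), did not pass the test (log2 fold change -0.45, SE 0.435). It lay between 2.41 and 2.97 CPM in Cre- Saline and at 0.542, 2.34 and 2.74 CPM in Cre- MPTP.

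Tnfrsf1b (TNF receptor 2, chr4:145213463-145246870), which responds best to membrane-bound TNF and is found on microglia and endothelium, was at 4.21, 4.69 and 4.24 CPM in Cre- Saline and 7.26, 7.53 and 7.92 CPM in Cre- MPTP. The groups were tight and apart, and the fitted difference was 0.79 in log2 (SE 0.191, edgeR adjusted p = 0.0423). The adjusted p rose to 0.139, 0.139 and 0.161 without Cre- Saline replicates 1, 2 and 3 and to 0.0727 and 0.0901 without Cre- MPTP replicates 2 and 3. Summed markers of microglia ranged from 209 to 241 CPM in Cre- Saline and from 150 to 216 CPM in Cre- MPTP, with P2ry12 called lower among 6 tested.

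Tnfrsf19 (TROY, chr14:60963834-61046855), an orphan receptor of glial precursors and brain endothelium, fell. It was at 44.0, 44.4 and 45.6 CPM in Cre- Saline and 24.7, 25.3 and 29.0 CPM in Cre- MPTP, a gap far wider than the spread in either group. The log2 fold change was -0.76 (SE 0.128, edgeR adjusted p = 0.00525), and leaving out each library of the 2 groups in turn left it between -0.84 and -0.72, called each time. The 6 endothelial markers summed to 237 to 263 CPM in Cre- Saline and 213 to 396 CPM in Cre- MPTP, with Tek called lower (log2 fold change -1.81). The 5 oligodendrocyte markers summed to 11864 to 16167 CPM in Cre- Saline and 8754 to 11320 CPM in Cre- MPTP, with Mog called lower, and 3 precursor markers to 75.1 to 106 CPM and 50.9 to 121 CPM. Their part in the fall of Tnfrsf19 was not tested.

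Tnfrsf25 (death receptor 3, chr4:152115934-152120119), the receptor of Tnfsf15, was at 3.97, 1.87 and 2.48 CPM in Cre- Saline and 1.30, 0.832 and 0.759 CPM in Cre- MPTP. The log2 fold change was -1.57 (SE 0.338, edgeR adjusted p = 0.0231). Without Cre- Saline replicate 1 or 3 the adjusted p was 0.0988 and 0.0526, and without Cre- MPTP replicate 2 or 3 it was 0.0632 and 0.0815. The 3 Cre+ Saline libraries, at 1.42, 1.02 and 1.18 CPM, overlapped the Cre- MPTP range.

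**Figure D2:**
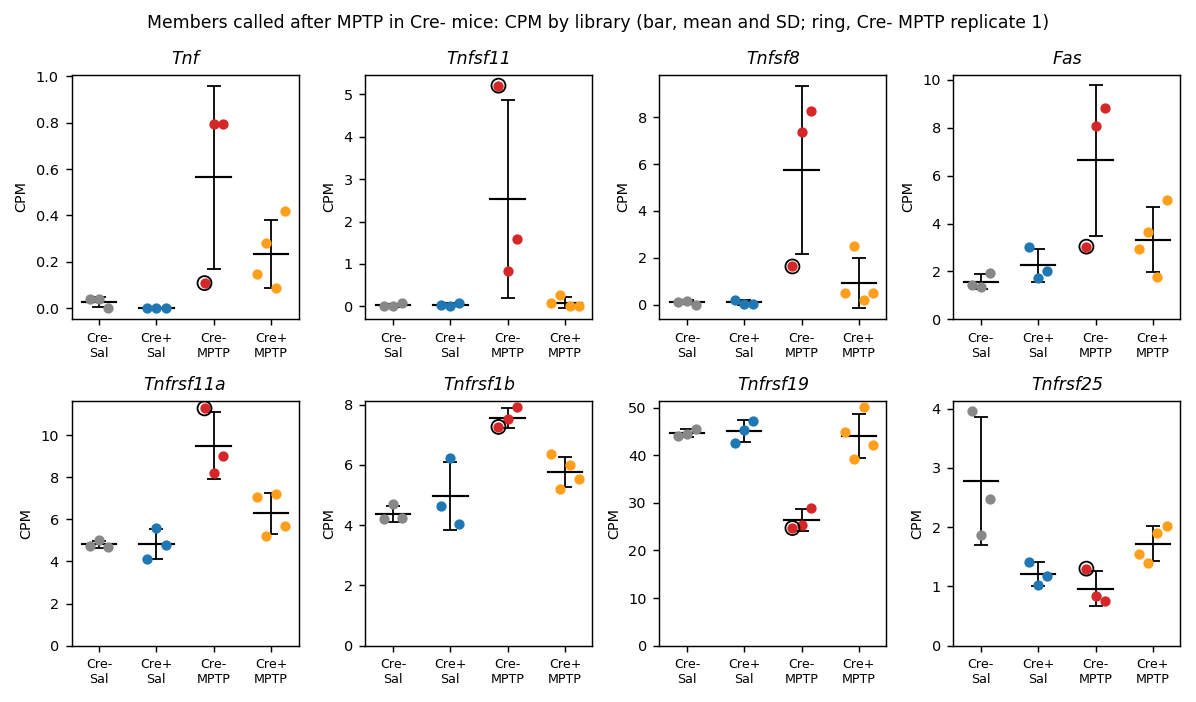
CPM by library of the 8 members called after MPTP in Cre- mice, with the mean and SD of each group and Cre- MPTP replicate 1 ringed. The Cre- MPTP libraries of Tnfrsf19 sit between 24.7 and 29.0 CPM and all other libraries at or above 39.2 CPM, while Tnf, Tnfsf8 and Fas show the ringed library far below replicates 2 and 3.

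A further 6 members had an unadjusted p under 0.05 in Cre- mice but did not pass the adjusted test. Their log2 fold changes were 1.67 (SE 0.549) for Tnfsf9, the 4-1BB ligand, 1.17 (SE 0.311) for Ltbr, 1.13 (SE 0.456) for Tnfrsf12a, -0.84 (SE 0.345) for Tnfsf10 (TRAIL), -1.13 (SE 0.36) for Tnfrsf13b, a receptor of B cells, and -0.63 (SE 0.275) for the decoy receptor Tnfrsf22, with edgeR adjusted p between 0.0702 (Ltbr) and 0.315 (Tnfrsf22). Leaving out Cre- MPTP replicate 1 moved Tnfsf9 to 0.69, Tnfrsf12a to 0.25, Ltbr to 0.57 and Tnfsf10 to -0.50. Ltbr came closest, at 40.4, 15.6 and 15.6 CPM in Cre- MPTP against 9.88, 10.7 and 11 CPM in Cre- Saline. Its 3 MPTP libraries were all above Saline, and without the 2 libraries that stood apart the log2 fold change was 0.58 with an edgeR adjusted p of 0.0141. Tnfrsf12a, by contrast, was at 48.2 CPM in replicate 1 and at 13.9 and 12.9 CPM in the others, against 9.71 to 12.8 CPM in Cre- Saline.

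In Cre+ mice no member was called after MPTP by edgeR, and no gene of the whole table was (0.0%). Only 2 members, Tnf and Tnfsf8, had an unadjusted p under 0.05, against 3.47% of all genes. DESeq2 called no member and limma voom called 1, Tnf. Both Tnf and Tnfsf8 had passed the filter only through MPTP libraries, which favoured a higher value after MPTP. Their p and the limma voom call are therefore a description. Tnf had 0 counts in each Cre+ Saline library and 4, 5, 2 and 11 in Cre+ MPTP. With the Saline group set at a floor of 3 counts over the group, that was 5.97-fold higher. From the pooled counts of 22 and 0, the exact lower 95% limit of the ratio was 4.46 (counting error only). All 4 Cre+ MPTP libraries were thus above all Cre+ Saline libraries, although only just at 2 counts, and the fitted log2 fold change, which depends on the prior count, was 5.53 (SE 1.38, edgeR adjusted p = 0.580). Tnfsf8 had 5, 1 and 1 counts in Cre+ Saline and 13, 45, 4 and 13 in Cre+ MPTP, with replicate 2 the highest and replicate 3 within the Saline range in CPM. Pooled, 75 counts against 7 gave a ratio of 8.72 (exact 95% interval 4.03 to 22.4, counting error only), and the fitted log2 fold change was 3.20 (SE 1.09, edgeR adjusted p = 1.00), or 2.02 without replicate 2. Tnfsf11 had 1, 0 and 2 counts in Cre+ Saline and 2, 5, 0 and 0 in Cre+ MPTP, which overlap.

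None of the receptors passed the test in Cre+ mice. Tnfrsf19 was at 42.6, 45.3 and 47.2 CPM in Cre+ Saline and 44.8, 39.2, 50.1 and 42.2 CPM in Cre+ MPTP, and its log2 fold change was -0.03 (95% interval -0.29 to 0.23). Fas was at 3.04, 1.71 and 2.02 CPM and at 2.92, 3.64, 1.77 and 5.0 CPM, overlapping, with a log2 fold change of 0.56 (95% interval -0.31 to 1.44). Without Cre+ MPTP replicate 4 the value for Fas was 0.29. Tnfrsf11a stood at 4.14, 5.57 and 4.76 CPM in Cre+ Saline and 7.06, 5.20, 7.19 and 5.69 CPM in Cre+ MPTP, with a 95% interval of -0.03 to 0.79 in log2. Tnfrsf1b stood at 4.65, 6.22 and 4.04 CPM and at 6.36, 5.20, 5.99 and 5.53 CPM, with an interval of -0.17 to 0.60. In both receptors 1 Cre+ Saline library lay within the Cre+ MPTP range. The Cre+ MPTP libraries of Tnfrsf25 were at 1.55, 1.40, 1.91 and 2.02 CPM, against 1.42, 1.02 and 1.18 CPM in Cre+ Saline, with an interval of -0.15 to 1.18. The CPM of Cre+ MPTP lay wholly above Cre+ Saline in 2 members, Tnf and Tnfsf9, against 5.06% of all genes, and wholly below in 0, against 4.61%. For Tnf the filter favoured this direction.

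**Figure D3:**
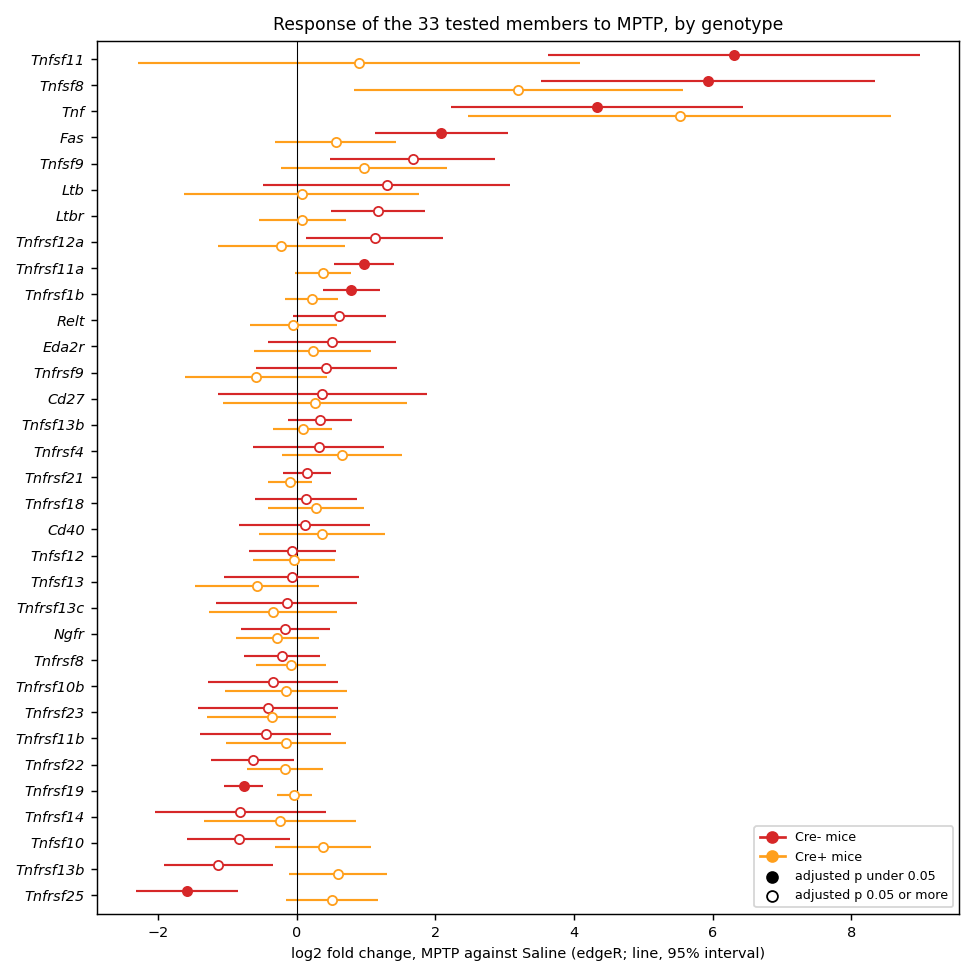
Log2 fold change of MPTP against Saline (x axis) for the 33 tested members in Cre- mice (red) and Cre+ mice (orange), with 95% intervals and filled points for an adjusted p under 0.05. Filled points appear in Cre- mice for 8 members and in Cre+ mice for 0, and the 2 intervals are apart for Tnfrsf13b, Tnfrsf19 and Tnfrsf25 while those of Tnf overlap.

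Under MPTP the genotypes were compared directly. In Cre+ mice Tnfsf11 was lower, at a log2 difference of -4.87 (SE 0.981, edgeR adjusted p = 0.0314), and Tnfrsf19 was higher, at 0.74 (SE 0.121, edgeR adjusted p = 0.0128), 1 member in each direction. Tnfsf11 had passed the filter through the Cre- MPTP libraries alone, so its direction was fixed by the filter and its call is a description. Over all genes 0.517% were called higher and 1.03% lower. The Cre- MPTP libraries held 48, 21 and 48 counts of Tnfsf11 and the Cre+ MPTP libraries 2, 5, 0 and 0, and the pooled counts of 117 and 7 gave a ratio of 24.2 between Cre- and Cre+ (exact 95% interval 11.4 to 61.5, counting error only). Tnfrsf19 was between 39.2 and 50.1 CPM in Cre+ MPTP, wholly above the 24.7 to 29.0 CPM of Cre- MPTP and spanning the range of both Saline groups. The call on Tnfsf11 was lost without Cre+ MPTP replicate 1 (adjusted p = 0.112), 3 (0.0981) or 4 (0.0823), and it could not be tested without any 1 Cre- MPTP library. That on Tnfrsf19 was lost without Cre+ MPTP replicate 1 (0.061) or 3 (0.0543). Of the 6 endothelial markers, Kdr and Tek were called higher in Cre+ MPTP. All 6 summed to 234 to 316 CPM there, within the 213 to 396 CPM of Cre- MPTP. Of the 6 microglial markers only P2ry12 was called, higher in Cre+ MPTP (log2 difference 2.12). Of the 5 neutrophil markers that could be tested, 4 were lower. The part of these cell types was not tested.

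At an unadjusted p under 0.05 there were 14 members in this comparison, 4 higher and 10 lower, against 19.0% of all genes. Beside the called pair these were Tnfsf10, Tnfrsf13b and Tnfrsf25, higher in Cre+ by 0.96, 1.23 and 0.89 on the log2 scale, and Tnfsf8 (-2.72), Tnfsf9 (-1.85), Tnfrsf9 (-1.32), Tnfrsf12a (-1.21), Ltbr (-1.18), Fas (-1.01), Relt (-0.80), Tnfrsf11a (-0.59) and Tnfrsf1b (-0.39). Their SE lay between 0.176 and 0.791 and their edgeR adjusted p ran from 0.0707 (Ltbr) to 0.253 (Tnfrsf1b). Several of these values rested on Cre- MPTP replicate 1: without it Tnfsf9 was at -0.87, Tnfrsf12a at -0.34, Relt at -0.16, Tnfsf10 at 0.63 and Ltbr at -0.58. Ltbr (adjusted p = 0.0267), Fas (0.0363) and Tnfsf8 (0.0208) passed the test without that library. Cre+ MPTP lay wholly above Cre- MPTP in 5 members, against 6.25% of all genes, and wholly below in 6, against 5.07%. Tnfsf11, whose direction was fixed by the filter, was among these 6 and among the 10 lower at an unadjusted p. Without the 2 libraries that stood apart edgeR called 4 members, Tnfrsf19 higher and Tnfsf8, Fas and Ltbr lower, while Tnfsf11 then no longer passed the count filter.

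Without MPTP no member passed the test between genotypes. The CPM of Cre+ Saline lay wholly above Cre- Saline in 0 members, against 5.91% of all genes, and wholly below in 4, against 5.71%. Under Saline 0 members and 0.0% of all genes were called by edgeR, DESeq2 and limma voom each called 0 members, and Tnfrsf25 alone had an unadjusted p under 0.05, against 0.909% of all genes. Its log2 fold change was -1.20 (SE 0.324, edgeR adjusted p = 1.00).

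The interaction asks whether the response to MPTP differed between genotypes. By edgeR 0 members were called, against 0.0103% of all genes, and 9 members had an unadjusted p under 0.05, against 5.76%. DESeq2 called 2 members, Tnfrsf19 and Tnfrsf25, and limma voom called 5, namely these 2 with Tnfsf10, Tnfsf11 and Fas. Tnfsf11 had passed the filter through the Cre- MPTP libraries alone, which favoured a negative interaction. Its limma voom call and its place among the 9 are therefore a description. Tnfrsf25 had the smallest edgeR adjusted p, 0.166 (interaction 2.09, SE 0.458), and Tnfrsf19 followed at 0.223 (0.73, SE 0.175). For Tnfrsf25 the larger part came from Saline, where Cre+ differed from Cre- by -1.20 in log2, against 0.89 under MPTP. Neither of these differences was called. The other 7 were Tnfrsf13b (1.73, SE 0.485), Tnfsf10 (1.22, SE 0.470), Fas (-1.53, SE 0.586), Ltbr (-1.09, SE 0.421), Tnfrsf12a (-1.35, SE 0.618), Tnfrsf1b (-0.58, SE 0.259) and Tnfsf11 (-5.41, SE 2.36), with edgeR adjusted p between 0.341 and 0.795. Without Cre- MPTP replicate 1 the interaction of Tnfrsf12a was -0.47 and that of Ltbr -0.49, and without Cre+ Saline replicate 2 that of Tnfrsf1b was -0.38. Tnf was not among the 9 (1.19, SE 1.19, unadjusted p = 0.339). Without the 2 libraries that stood apart edgeR called Tnfrsf19 (adjusted p = 0.0368), Tnfrsf25 (0.0392) and Fas (0.0302). The share over all genes is not given for these DESeq2, limma voom and reduced fits. Their member counts are therefore not set against a background.

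Within Cre- MPTP, replicate 1 departed from its group in both directions. It was the highest of the 13 libraries in CPM for 11 of the 33 members, against 33.8% of all genes, and the lowest for 10, against 41.9%, so the members shared a feature of the whole library. Ltb was 8.06 times, Tnfsf9 4.20 times, Tnfrsf12a 3.59 times, Relt 2.72 times and Ltbr 2.59 times the mean CPM of replicates 2 and 3. Tnfrsf14 (HVEM) had no count there, and Tnf was 0.137 times, Tnfrsf23 0.203 times, Tnfsf8 0.208 times, Tnfrsf11b 0.213 times and Fas 0.359 times that mean. Tnfrsf1b and Tnfrsf19, at 0.940 and 0.911 times, were close to it. As TPM the same library was highest for 7 members and lowest for 13.

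**Figure D4:**
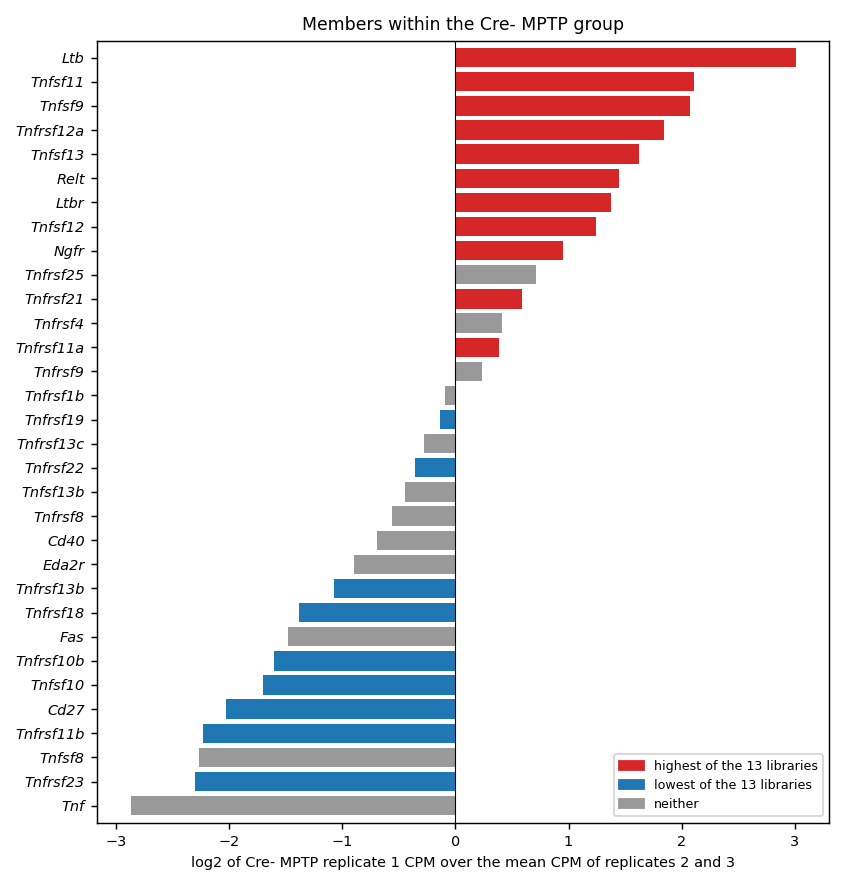
Log2 ratio of the CPM of Cre- MPTP replicate 1 to the mean of replicates 2 and 3 for the tested members with a count in replicate 1, coloured by whether replicate 1 was the highest or the lowest of the 13 libraries. Ltb, 8.06 times the mean, is at the top and Tnf, 0.137 times, at the bottom.

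Ligands and receptors that bind each other were set side by side. For Tnfsf11 and Tnfrsf11a both partners rose after MPTP in Cre- mice, as did Tnf and Tnfrsf1b. The direction of the ligands Tnf, Tnfsf11 and Tnfsf8 was fixed by the filter, so their rises beside these receptors are a description. Tnfsf8 rose while Tnfrsf8 (CD30) was at 2.42 to 2.70 CPM in Cre- Saline and 1.63 to 2.42 CPM in Cre- MPTP and was not called. Fas rose with its ligand below the filter, and Tnfrsf25 fell with Tnfsf15 at no more than 3 counts. Neither Tnfsf12 nor Tnfrsf12a was called in any comparison by edgeR. Tnfsf12 and Tnfsf13 overlap a joint transcript (Tnfsfm13) on their own strand, and 14 of the 43 members overlap some other counted gene. The strand setting of the counting was not given, so reads of Cd27 and Tnfrsf9, for example, cannot be told apart from those of Vamp1 and Camta1 on the opposite strand.

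Of the remaining receptors, Tnfrsf21 was at 119 to 141 CPM in Cre- Saline and 122 to 186 CPM in Cre- MPTP and Ngfr, the p75 neurotrophin receptor, at 5.99 to 7.54 and 4.06 to 8.78 CPM. Relt was at 36.3 to 38.5 and 35.6 to 99.5 CPM. For all 3 the highest library was Cre- MPTP replicate 1 and none was called in any comparison. The TRAIL receptor Tnfrsf10b and the decoy receptor Tnfrsf23, a near copy and neighbour of Tnfrsf22 and Tnfrsf26, gave log2 fold changes of -0.34 and -0.42 after MPTP in Cre- mice, neither called. The lymphocyte receptors Cd27, Cd40, Tnfrsf4 (OX40), Tnfrsf9 (4-1BB), Tnfrsf13c and Tnfrsf14 stayed at or below 1.87 CPM in every library, and Tnfrsf18 (GITR) lay between 2.38 and 7.99 CPM. Eda2r, the receptor of ectodysplasin A2, lay between 0.392 and 0.990 CPM. The B cell survival ligand Tnfsf13b (BAFF), between 5.0 and 8.65 CPM, and Tnfsf13 (APRIL), between 0.891 and 3.58 CPM, were not called.

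Downstream of the receptors, 42 signalling genes (TRAFs, adaptors, caspase-8, NF-kappaB subunits and inhibitors, and the proteases that shed TNF) were all tested. After MPTP in Cre- mice 6 rose and 0 fell, against 2.23% higher and 0.956% lower over all genes, with a median log2 fold change of 0.28 over the 42 and 0.03 over all genes. These were Nfkbia (2.49), Nfkb2 (2.09), Birc3 (2.09), Tnfaip3 (1.92), Rhbdf2 (1.82), which carries the shedding protease Adam17 to the cell surface, and Casp8 (1.05), with edgeR adjusted p between 0.0033 and 0.0284. Nfkbia, the inhibitor of NF-kappaB, was at 17.9, 20.1 and 32.1 CPM in Cre- Saline and 242, 75.9 and 75.7 CPM in Cre- MPTP, and Tnfaip3 (A20), a second brake on the pathway, at 4.37, 4.02 and 4.13 and at 13.2, 17.3 and 16.7 CPM. In neither did the groups overlap. In Cre+ mice 0 of the 42 were called after MPTP. Under MPTP 5 of the 42 were lower in Cre+ than in Cre- mice and 0 higher, against 1.03% lower and 0.517% higher over all genes. These were Nfkbia (-2.41), Rhbdf2 (-1.69), Tnfaip3 (-1.63), Nfkb2 (-1.61) and Birc3 (-1.36), with adjusted p between 0.0154 and 0.0445. Casp8 was not among them (-0.32, SE 0.211), and stood at 2.54 to 3.14 CPM in Cre- Saline, 2.47 to 3.09 in Cre+ Saline, 4.63 to 7.69 in Cre- MPTP and 4.08 to 5.38 in Cre+ MPTP. Under Saline and in the interaction 0 of the 42 were called. The alternative fits and left-out libraries were not examined for these 42 genes. Fitted to the MPTP groups alone, edgeR called no gene of the whole table between genotypes, so these calls were absent there.

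**Figure D5:**
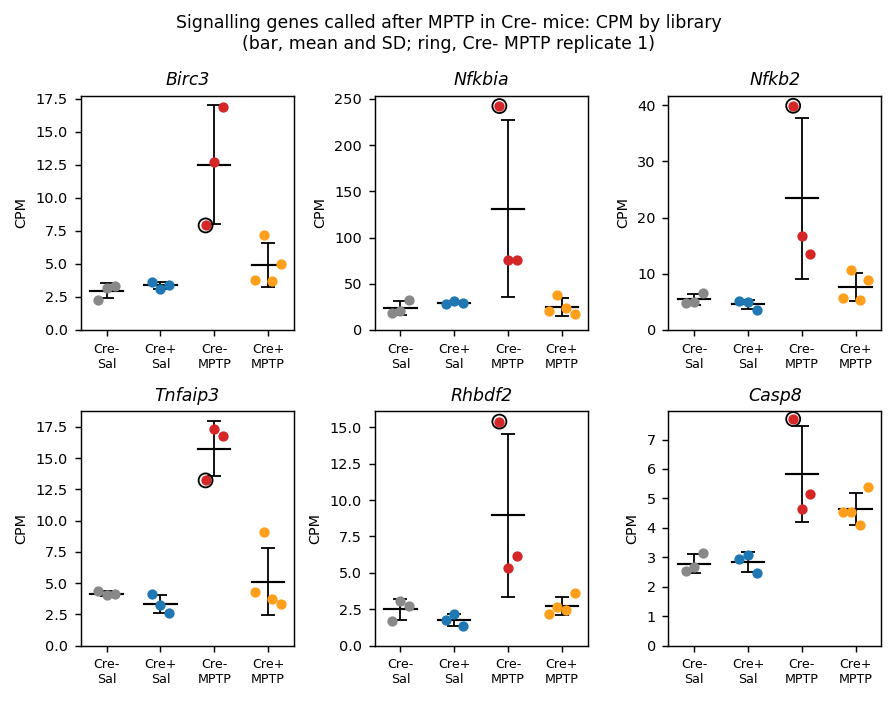
CPM by library of the 6 signalling genes called after MPTP in Cre- mice, with the mean and SD of each group and Cre- MPTP replicate 1 ringed. For Nfkbia the Cre- MPTP libraries lie between 75.7 and 242 CPM and all other libraries at or below 38.1, whereas for Casp8 both MPTP groups lie above both Saline groups.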

How the data were processed

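RNA was taken from whole midbrain and libraries were prepared with a stranded total RNA kit, per the labels. According to the methods and the submitters' processing notes, reads were trimmed with Trimmomatic (version 0.36), mapped to GRCm38 with STAR (version 2.5.2b) and counted per gene with featureCounts of Subread (version 1.5.2). The values deposited by the authors are raw counts of unique reads, not normalized, 1 column per library. The strand setting was not given in the sources used here.

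Symbols came from GENCODE M21. edgeR (version 4.0.16, TMM scaling, R 4.3.3) was fitted to all 13 libraries with 1 coefficient per group, keeping the 19360 of 49315 genes that reached 10 counts in 3 or more libraries, by the quasi-likelihood test with Benjamini-Hochberg adjustment over all genes and a threshold of 0.05. CPM and TPM were computed from the counts with edgeR's library sizes and the exon lengths in the files. Depth was 11489150 to 29397278 counts per library, and intervals on ratios cover counting error only. In counts simulated for Cre- MPTP against Cre- Saline over 19360 genes, edgeR called 20 of the 67 genes set to a 2-fold change, 51 of 67 at 4-fold, 62 of 66 at 8-fold, and 5 unchanged genes. DESeq2 (version 1.42.0), limma voom (version 3.58.1) with sample quality weights, other filters and scalings, a replicate block and left-out libraries were the alternatives. Each library is a distinct animal.

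Members, gene lists and the libraries to leave out were chosen with earlier results of these data known. All members are named. Values by library are given for members called in any comparison, and fold changes for these and for members with an unadjusted p under 0.05 in a comparison.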

Additional observations from a re-analysis of the deposited data

Results flagged for a closer look

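In the group of 4 Cre+ MPTP libraries, the CPM of each tested member was checked for a library far from the other 3 (Dixon's gap test at the 95% level). Only Tnfsf8 was picked out. Replicate 2 stood at 2.52 CPM and the others between 0.177 and 0.496 CPM, a gap of 0.864 of the whole range. Chance picks out about 1 in 20 groups.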

How the results depend on the processing

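The 8 members called after MPTP in Cre- mice became 0 with edgeR fitted to those groups only, and leaving out 1 library gave 1 to 9. The fewest, 1, came without Cre- Saline replicate 1, then 2 without replicate 3 and 3 without replicate 2, 4 without Cre- MPTP replicate 3 and 5 without replicate 2. The 2 members called between genotypes under MPTP became 7 by DESeq2, 8 by limma voom, 0 with the 2 groups only, 1 with a filter of 30 counts, 4 without the 2 libraries that stood apart, and 0 to 5 with 1 library left out (0 without Cre+ MPTP replicate 1 or 3, 1 without replicate 4, 4 and 5 without Cre- MPTP replicates 1 and 2). After MPTP in Cre+ mice limma voom called 1 member in place of 0. For the interaction, 0 became 2 by DESeq2, 5 by limma voom, 3 without the 2 libraries and 0 to 2 with 1 left out (2 without Cre- MPTP replicate 1). Under Saline the count was 0 in every alternative. Over all genes, the 616 called after MPTP in Cre- mice became 110 with edgeR on those groups only, 1133 by DESeq2, 2624 by limma voom and 1923 without the 2 libraries, and the 299 under MPTP became 0, 834, 1224 and 557. Beyond the fits with fewer libraries, the cause was not tested.

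The mouse numbers of the labels are shared by distinct animals and do not pair them (correlations of deviations between same-numbered libraries -0.179 to 0.184). With the replicate block, 4 members were called after MPTP in Cre- mice, 0 between genotypes under MPTP and 0 in each other comparison.

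Of 847 refitted fold changes of single members, 742 kept direction and side of the threshold, 45 lost the call, 46 gained one and 14 changed sign, all 14 at values that were not called. With 1 library left out, the log2 fold change after MPTP in Cre+ mice ranged from -0.51 to 1.72 for Tnfsf11 and from -0.0975 to 0.0188 for Tnfrsf19. That between genotypes under Saline ranged from -0.28 to 3.08 for Tnfsf11, -1.09 to 0.63 for Tnfsf8, -0.11 to 0.11 for Tnfrsf11a, -0.0207 to 0.0600 for Tnfrsf19 and -0.0106 to 0.32 for Tnfrsf1b. By limma voom it was -0.43 for Tnfsf8 and -0.0440 for Tnfrsf11a, and the interaction of Tnf was -0.76. Counts under 10 in every Saline library limit Tnf, Tnfsf8 and Tnfsf11.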
